A study of Mus musculus with 2 samples.

Results

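Cyp17a1, Cyp19a1, Srd5a1, Srd5a2 and Srd5a3 are grouped here as genes of the androgen and estrogen branch and of the 5-alpha-reductase family. Cyb5a, Cyb5b, Cyb5r3 and Por, called redox partners below, are genes of electron transfer. These 9 genes were taken by gene symbol from the transcript tables and linked by gene identifier to the gene tables. All 9 were found among 55381 gene symbols. RNA came from the adrenal gland of female mice aged 14 days, of the F1 hybrid strain B6CASTF1/J, with no treatment named. Total RNA was sequenced after reduction of ribosomal RNA, from 300.0 ng per library, with ERCC spike-ins (synthetic RNAs of known amount) added. There is 1 group of 2 libraries, called replicate 1 and replicate 2 in the labels, with 37586172 and 33844950 expected counts (reads that the authors assigned to genes by an estimate that splits ambiguous reads). The sample behind replicate 1 is described as a pool of 3 females and that behind replicate 2 as another numbered female, yet both share a donor identifier and a description of the library as pooled. Whether the replicates are separate animals is therefore not settled, and p-values measure the difference between these libraries only, which may be technical.

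In most mammals the androgen branch begins when the product of Cyp17a1, a microsomal cytochrome P450, hydroxylates pregnenolone or progesterone and then cleaves the side chain. Cyp19a1 is aromatase, the P450 that turns androgens into estrogens, and Srd5a1 and Srd5a2 are the steroid 5-alpha-reductases that make dihydrotestosterone from testosterone. Por passes electrons from NADPH to all microsomal P450s, and cytochrome b5 (Cyb5a) favours the side-chain cleavage by Cyp17a1. The adult mouse adrenal makes corticosterone as its main glucocorticoid, a route that needs no Cyp17a1.

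The libraries differed widely, and this touches each value below. The adrenal label was checked against markers of the gland: 8 of 8 steroid cortex genes lay between 99.1 and 2870 TPM (a level per transcript length, relative to the total of the library) in replicate 1 and between 34.0 and 1275 TPM in replicate 2. Their summed level was 9196 against 3937 TPM, and 8 of 8 were called lower in replicate 2. The 6 chromaffin markers summed to 1573 and 722 TPM, again with 6 of 6 lower. Hepatocyte markers summed to 353 and 19360 TPM, with 8 of 8 called higher in replicate 2 and none at 0 in either library. Skeletal muscle markers summed to 16.1 and 386 TPM, thymocyte markers to 32.4 and 0.42 TPM, red cell markers to 5923 and 1793 TPM, and adipocyte markers to 1171 and 1350 TPM. The part of these cell types in the differences below was not tested. In whole tissue, fewer cells of a type and less RNA per cell cannot be told apart. Over 16678 genes, the biological coefficient of variation in edgeR's intercept-only fit was 0.407.

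The redox partners stood high and the androgen-route P450s stood low or near 0. Ordered by mean TPM over the libraries, the genes ran Cyb5a, Cyb5b, Cyb5r3, Por, Srd5a2, Srd5a3, Srd5a1, Cyp17a1, Cyp19a1. Por and Srd5a2, Srd5a2 and Srd5a3, Srd5a1 and Cyp17a1, and Cyp17a1 and Cyp19a1 were neighbours whose ranges over the libraries did not overlap. The remaining neighbours overlapped: Cyb5a and Cyb5b, and Cyb5r3 and Por, changed places between the libraries, while Cyb5b stayed above Cyb5r3 and Srd5a3 above Srd5a1 in each. The second transcript table, made from the reads and an index without the alignment used for the gene table, gave a higher TPM for each of the 9 genes in each library, and TPM in each table is relative to that table's own entries.

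**Figure D1:**
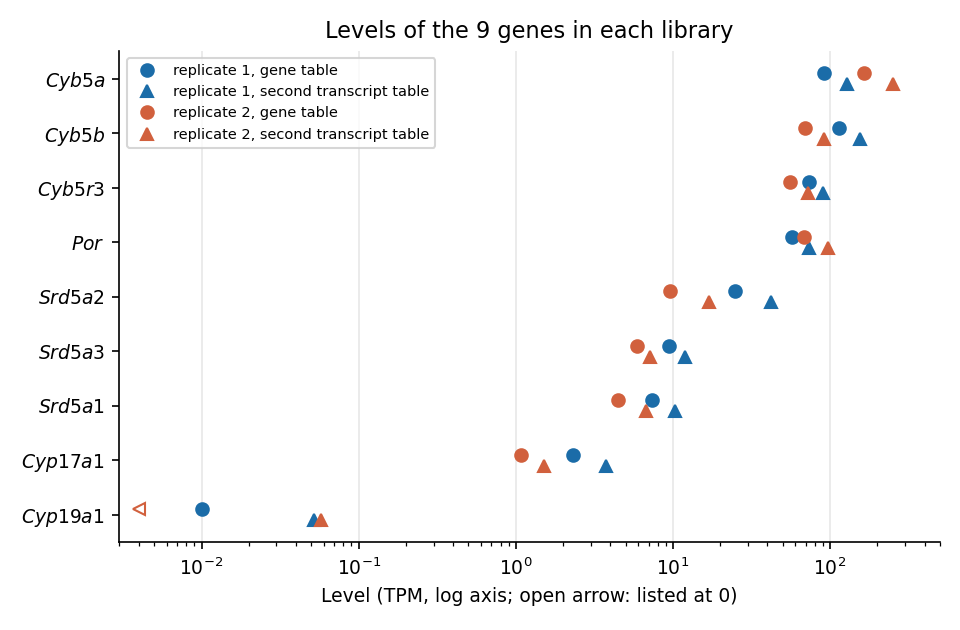
Level of each of the 9 genes in TPM (log axis) in replicate 1 (blue) and replicate 2 (orange), from the gene table (circles) and from the second transcript table (triangles); an open arrow marks a value listed at 0. The 4 redox partners sit between 55.4 and 165.0 TPM in the gene table, the 3 Srd5a genes between 4.46 and 24.7 TPM, and Cyp17a1 and Cyp19a1 below them.

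Differences between the libraries are log2 of replicate 2 over replicate 1 after TMM scaling, which sets the libraries level over most genes. An exact conditional binomial test set each gene that averaged 20 or more counts against counting error, and a gene was called at a Benjamini-Hochberg adjusted p under 0.05. Of 16137 genes tested, 53.2% were called, 28.6% higher and 24.6% lower in replicate 2. Of the 9 genes, 8 were tested (Cyp19a1 had too few counts): 2 were called higher (Cyb5a and Por), 4 lower (Srd5a1, Srd5a2, Srd5a3 and Cyb5b), and 2 were not called (Cyp17a1 and Cyb5r3). Calls at this depth were common among all genes, so that the number of calls is not a result about these 9. Their median difference was -0.30 among the 8 tested, against -0.0032 over all genes tested, and the middle 80% of all genes lay between -0.54 and 0.83. At 1.5-fold or more, 3 of the 8 were called (Cyb5a, Por and Srd5a2), against 20.7% of all genes.

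**Figure D2:**
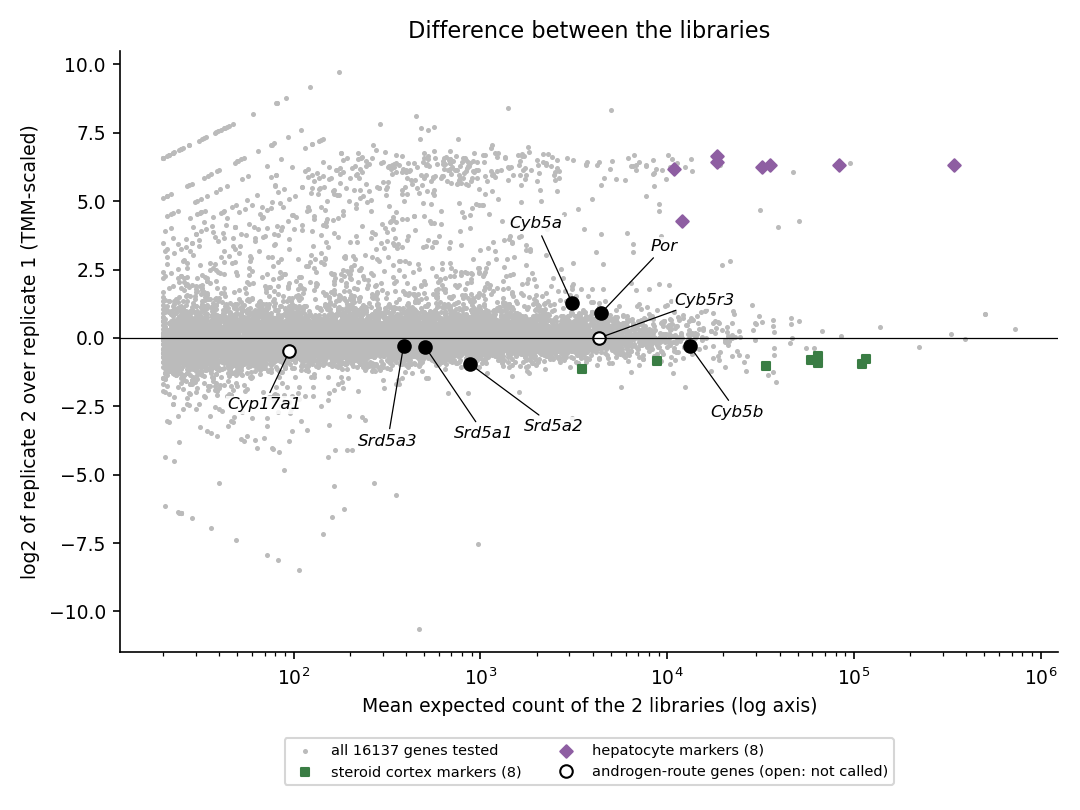
Difference between the libraries (log2 of replicate 2 over replicate 1, TMM-scaled) against mean expected count (log axis) for all 16137 genes tested (grey), with steroid cortex markers (green squares), hepatocyte markers (purple diamonds) and the 8 tested androgen-route genes (circles, open where not called). Cyb5a at 1.28 and Por at 0.91 lie above 0 and Srd5a2 at -0.95 lies among the cortex markers, whose values run from -1.12 to -0.66.

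Cyp17a1 (ENSMUSG00000003555.8; mm10 chromosome 19, 46667165 to 46673172, minus strand) was detected at a low level. It had 126 expected counts in replicate 1 and 64 in replicate 2, or 2.33 TPM (95% Poisson interval 1.94 to 2.77) and 1.08 TPM (0.832 to 1.38), a mean of 1.71 ± 0.884 TPM (SD, n = 2). Intervals here and below cover counting error only. That placed it at percentile 51.1 and 44.7 of 21978 protein-coding genes. Replicate 1 was the higher library, and the counting intervals did not overlap on the TPM scale, which is not TMM-scaled. After TMM scaling replicate 2 stood 1.40-fold lower (95% interval 1.03 to 1.92) and was not called (exact binomial test, adjusted p = 0.058). With spike-ins or total counts as the scale, Cyp17a1 was called lower by the same exact test (log2 -0.76, adjusted p = 0.0011, and -0.82, adjusted p = 0.00033), scales on which the median of all genes itself moved to -0.28 and -0.34. Part of the TPM difference lay in length: the authors' effective length of the gene was 1564 bases in replicate 1 and 1797 in replicate 2.

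Most Cyp17a1 signal was on Cyp17a1-201, which codes for 507 codons and took 81.7% and 86.3% of the gene's TPM. Cyp17a1-202, a short transcript that keeps an intron, took 14.2% in replicate 1 from 5.37 counts and 0 in replicate 2. In the second table the same transcript took 32.2% and 0. Cyp17a1-204, a coding transcript with another start, took 4.15% and 13.7% in the first table and 9.37% and 32.6% in the second. With 64 to 126 counts for the whole gene, these shares rest on few reads.

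Set against the electron donors in the same library, Cyp17a1 was 24.8-fold below Por in replicate 1 and 63.2-fold below it in replicate 2 (log2 ratio of TPM -5.31 ± 0.956, SD, n = 2). Against Cyb5a it was 39.3-fold and 153-fold below (log2 -6.28 ± 1.38). The gap to both partners was wider in replicate 2, where the partners were higher and Cyp17a1 lower. Against Cyp11a1, the mitochondrial P450 that makes pregnenolone and marks the steroid cortex, Cyp17a1 was 516-fold and 479-fold below by TPM. The spread of this TPM ratio between the libraries was small (log2 -8.96 ± 0.076), but TPM carries the unlike effective lengths of Cyp17a1. By TMM-scaled counts the 2 genes were less alike, at -0.48 for Cyp17a1 and -0.81 for Cyp11a1. Only 2 libraries carry these ratios, so no test was made of them.

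Cyp17a1 is also a gene of steroid cells in the gonad, whose markers were checked. Of 7 gonad markers, Fshr and Foxl2 were at 0 counts in both libraries. Lhcgr had 2 counts and 1 count, Amh 6 and 9, and Dhh 67 and 63.4. Insl3, a peptide hormone of Leydig and theca cells, had 49 and 17.6 counts, or 2.70 and 1.02 TPM, a level near that of Cyp17a1, and was called lower in replicate 2 (log2 -0.94; exact binomial test, adjusted p = 0.035). The part of gonad cells in the Cyp17a1 signal was not tested. The 7 markers summed to 4.51 and 6.03 TPM, most of it in replicate 1 from Insl3 and in replicate 2 from Nr5a2 (0.99 and 4.35 TPM), a nuclear receptor that hepatocytes also express. Kidney tubule markers, from the organ beside the adrenal, summed to 0.49 and 0.26 TPM, with Umod and Slc12a1 at 0. Aqp2 had 12 and 4 counts and Slc34a1 2 and 0. Lrp2, the only one with enough counts to test, had 73 and 84 counts (0.21 and 0.17 TPM). It was called higher in replicate 2 (log2 0.69; exact binomial test, adjusted p = 0.0079).

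Cyp19a1 (ENSMUSG00000032274.9; mm10 chromosome 9, 54165937 to 54268110, minus strand) was at the limit of detection. The gene table gave it 1 count in replicate 1 and 0 in replicate 2, listed as 0.01 and 0 TPM. The second table gave 3.41 and 3.32 estimated counts, all on Cyp19a1-201, or 0.052 and 0.058 TPM. A count of 0 in replicate 2 allows up to 3 counts, which is 8.86e-06% of that library. On the effective length that the gene table lists for Cyp19a1 in that library, 1369 bases, this is 0.066 TPM, and Por, at 68.3 TPM, was at least 1027-fold higher. No fold between the libraries can be given.

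**Figure D3:**
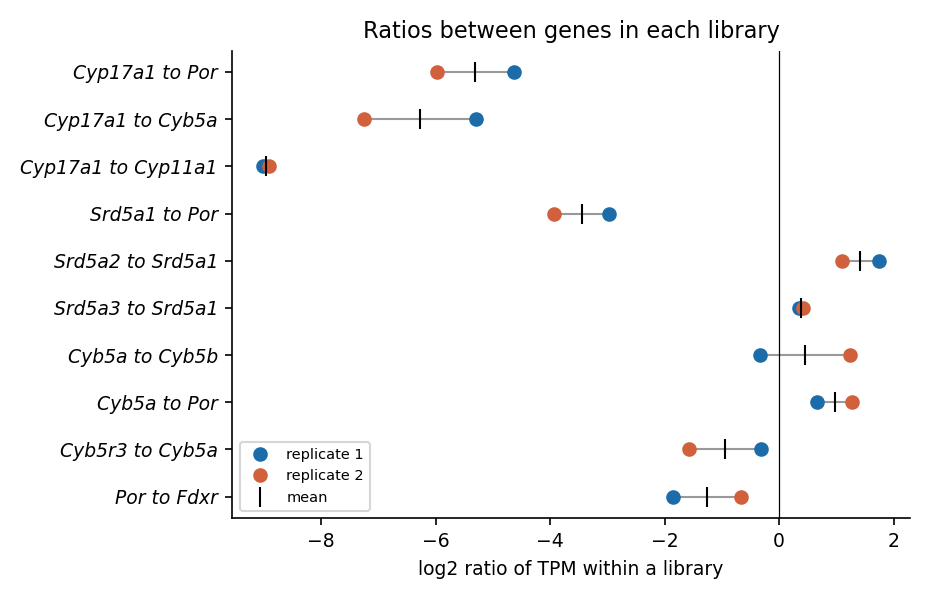
log2 ratio of TPM between pairs of genes within replicate 1 (blue) and replicate 2 (orange), with a black tick at the mean of the 2 libraries. Cyp17a1 to Cyp11a1 is nearly equal in the libraries (-9.01 and -8.90), while Cyb5a to Cyb5b crosses 0 (-0.32 and 1.24).

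The 3 Srd5a genes were all lower in replicate 2, and Srd5a2 had the largest share of their TPM in each library. Srd5a2 (ENSMUSG00000038541.8; mm10 chromosome 17, 74016955 to 74047916, minus strand) had 1288 and 473 counts, or 24.7 and 9.53 TPM, a mean of 17.1 ± 10.8 TPM (SD, n = 2). It was 1.94-fold lower in replicate 2 (95% interval 1.74 to 2.16; exact binomial test, adjusted p = 1.251e-36), and 88.3% of all genes tested differed by less. Its difference of -0.95 fell inside the range of the steroid cortex markers, -1.12 (Mc2r) to -0.66 (Cyp21a1). Relative to the median of those 8 markers, -0.87, it differed by -0.086.

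Srd5a1 (ENSMUSG00000021594.11; mm10 chromosome 13, 69573449 to 69611442, minus strand) had 644 and 367 counts, or 7.38 and 4.46 TPM (mean 5.92 ± 2.07, SD, n = 2). It was 1.25-fold lower in replicate 2 (1.10 to 1.42; exact binomial test, adjusted p = 0.0018). Srd5a3 (ENSMUSG00000029233.15; mm10 chromosome 5, 76140271 to 76155504, plus strand), whose enzyme reduces polyprenol to dolichol for protein glycosylation, had 491 and 285 counts, or 9.41 and 5.95 TPM (mean 7.68 ± 2.45, SD, n = 2). It was 1.23-fold lower (1.06 to 1.42; exact binomial test, adjusted p = 0.014). These differences were near the middle of all genes in size, since 56.8% and 53.5% of genes tested differed by less. With total counts as the scale they were larger, at -0.66 for Srd5a1 and -0.63 for Srd5a3. With TMM both sat above the cortex marker median, by 0.55 for Srd5a1 and 0.57 for Srd5a3.

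Together the 3 genes summed to 41.5 TPM in replicate 1 and 19.9 TPM in replicate 2. Srd5a2 made up 59.6% and 47.8% of that sum, Srd5a3 22.7% and 29.8%, and Srd5a1 17.8% and 22.4%. Srd5a2 was 3.35-fold above Srd5a1 in replicate 1 and 2.14-fold above it in replicate 2 (log2 1.42 ± 0.459, SD, n = 2), while Srd5a3 to Srd5a1 barely moved (1.28-fold and 1.33-fold). In the second table Srd5a2 took a larger share, 65.6% and 55.1%.

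Other genes lie over these loci by annotated span, introns included, and the overlap of their exons was not measured. CT025731.1, a non-coding transcript on the same strand, shares 20919 bases of span with Srd5a2, whose only transcript is 1605 bases long. It had 397 and 135 counts and a posterior SD, the authors' error of the estimate, of 18.6 and 12.8 counts. CT025731.1 was also called lower in replicate 2 (log2 -1.06; exact binomial test, adjusted p = 5.351e-14). Srd5a2 itself had a posterior SD of 4.54 and 3.33 counts, on 1288 and 473 counts. Whether reads were split between them was not tested. Srd5a1 lies wholly within Nsun2, an RNA methyltransferase gene on the opposite strand with 1972 and 1320 counts, which was not called (log2 -0.088). Nsun2 had a posterior SD of 0 counts in both libraries, and Srd5a1 had 1.82 and 0.83 counts. Gm17108, a gene on the same strand that shares 945 bases of span with Srd5a1, had the same posterior SD of 1.82 and 0.83. Its own level was 9.24 and 1.3 counts. It is unknown here if strand entered the counting, and its part in the counts of Srd5a1 and Nsun2 was not tested.

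The promoter windows of the 3 Srd5a genes, which were lower together in replicate 2, and of Por, which was called the other way, are printed here from RefSeq (GRCm38.p6), from 250 bases before to 50 bases after the start. Windows of 6 of the 9 genes were read. None was found for Cyp17a1 and Cyb5r3, and Cyb5a was left out of the search. Capitals mark the letters of GGGCGG, the GC box bound by Sp factors, on either strand (CCGCCC is a match on the other strand).
Srd5a1 promoter window (chr13:69611414-69611713, minus strand): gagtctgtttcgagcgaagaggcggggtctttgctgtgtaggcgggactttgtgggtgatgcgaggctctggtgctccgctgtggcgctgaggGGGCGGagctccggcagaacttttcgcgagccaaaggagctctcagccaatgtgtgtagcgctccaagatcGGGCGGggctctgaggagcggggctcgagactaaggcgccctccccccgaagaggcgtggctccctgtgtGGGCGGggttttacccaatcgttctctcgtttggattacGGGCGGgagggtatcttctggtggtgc
Srd5a2 promoter window (chr17:74047811-74048110, minus strand): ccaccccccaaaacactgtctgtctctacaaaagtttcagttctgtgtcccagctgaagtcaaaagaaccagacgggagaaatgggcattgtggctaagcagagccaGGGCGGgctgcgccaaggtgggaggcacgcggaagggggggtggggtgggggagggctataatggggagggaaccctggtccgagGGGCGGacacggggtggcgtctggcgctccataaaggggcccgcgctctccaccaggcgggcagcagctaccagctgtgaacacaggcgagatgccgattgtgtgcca
Srd5a3 promoter window (chr5:76140023-76140322, plus strand): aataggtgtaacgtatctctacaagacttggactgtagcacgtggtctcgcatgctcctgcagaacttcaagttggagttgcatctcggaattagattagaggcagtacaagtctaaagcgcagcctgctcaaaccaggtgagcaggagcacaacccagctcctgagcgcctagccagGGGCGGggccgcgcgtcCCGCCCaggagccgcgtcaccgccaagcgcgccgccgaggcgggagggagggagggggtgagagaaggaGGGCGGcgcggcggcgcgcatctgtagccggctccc
Por promoter window (chr5:135688895-135689194, plus strand): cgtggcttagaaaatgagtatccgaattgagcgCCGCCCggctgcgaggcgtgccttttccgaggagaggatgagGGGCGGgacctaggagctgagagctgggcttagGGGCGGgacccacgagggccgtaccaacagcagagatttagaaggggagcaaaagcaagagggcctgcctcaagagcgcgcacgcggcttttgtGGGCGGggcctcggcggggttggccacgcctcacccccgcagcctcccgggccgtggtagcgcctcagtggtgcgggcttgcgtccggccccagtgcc
GGGCGG matched 4 times in the Srd5a1 window, 2 times for Srd5a2, 3 times for Srd5a3 and 4 times for Por, and none of these matches overlap. The window of Cyb5b (chr8:107150411-107150710) and those of Cyp19a1 held none. Of all 32851 RefSeq windows of this length, 35.7% held GGGCGG. The motif AAGGTCA, a site bound by the steroidogenic factor Nr5a1, was found in none of the windows read for these genes, on either strand. It was in 4.72% of all windows. This says only that these letters are not in the windows read, which leave out Cyb5a, Cyp17a1 and Cyb5r3. TATAAA occurred in 13.6% of all windows and, among the windows read for these genes, only in 2 of the 3 windows of Cyp19a1. The windows of Srd5a1, Srd5a2, Srd5a3, Por and Cyb5b held 60.7% to 67.3% G and C and 15 to 27 CpG sites, against medians of 52.7% and 7 over all windows. The 3 Cyp19a1 windows held 37.7% to 54.7% G and C and 2 to 6 CpG sites.

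Por (ENSMUSG00000005514.14; mm10 chromosome 5, 135670033 to 135735326, plus strand) was higher in replicate 2. It had 3794 and 5059 counts, or 57.7 and 68.3 TPM, a mean of 63.0 ± 7.49 TPM (SD, n = 2), at percentile 96.1 and 97.0 of protein-coding genes. By counts replicate 2 was 1.87-fold higher (95% interval 1.80 to 1.96; exact binomial test, adjusted p = 6.944e-189). On log2(TPM + 1), which is neither TMM-scaled nor on the same lengths, the difference was 0.24 in place of 0.91. The effective length given to Por was 1902 bases in replicate 1 and 2248 in replicate 2. Behind that, Por-201, the transcript of 678 codons, took 64.9% of Por TPM in replicate 1 and 83.8% in replicate 2, and transcripts that keep an intron took 26.3% and 8.82%. In the second table these intron-keeping transcripts took 17.1% and 8.04%, again more in replicate 1.

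Cyb5a (ENSMUSG00000024646.14; mm10 chromosome 18, 84838704 to 84879871, plus strand), the microsomal cytochrome b5, was higher in replicate 2. It had 2270 and 3927 counts, or 91.6 and 165.0 TPM, a mean of 128 ± 51.9 TPM (SD, n = 2). Replicate 2 was 2.43-fold higher (2.31 to 2.56; exact binomial test, adjusted p = 3.725e-259), and 91.8% of genes tested differed by less. With TMM its difference, 1.28, was larger in size than that of Srd5a2, -0.95, but with spike-ins as the scale it was smaller (1.01 against -1.23), as it was with total counts (0.94 against -1.29). Cyb5a and Por moved in the direction of the hepatocyte markers, whose median difference was 6.31, but by far less. Skeletal muscle markers (6 of 6 called higher, median 5.23) and adipocyte markers (4 of 4, median 0.67) went the same way. All steroid cortex, chromaffin, thymocyte and red cell markers were called lower. The part of any of these cell types in Cyb5a or Por was not tested.

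Cyb5b (ENSMUSG00000031924.4; mm10 chromosome 8, 107150640 to 107187471, plus strand), the form on the outer mitochondrial membrane, went the other way. It had 16739 and 9688 counts, or 115 and 69.7 TPM (mean 92.2 ± 31.9, SD, n = 2), and was 1.23-fold lower in replicate 2 (1.20 to 1.26; exact binomial test, adjusted p = 1.189e-58). With total counts as the scale the difference was -0.64, and relative to the cortex marker median it was 0.57. The leading cytochrome b5 thus depended on the library: Cyb5a made up 44.4% of the TPM of the pair in replicate 1 and 70.3% in replicate 2. In the second table these shares were 45.2% and 73.2%. The log2 ratio of Cyb5a to Cyb5b was -0.32 and 1.24 (mean 0.46 ± 1.11, SD, n = 2), so that neither gene stood above the other beyond the spread.

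Cyb5r3 (ENSMUSG00000018042.18; mm10 chromosome 15, 83153494 to 83172592, minus strand), the NADH-dependent reductase that feeds cytochrome b5, was not called. It had 5043 and 3577 counts, or 74.0 and 55.4 TPM (mean 64.7 ± 13.2, SD, n = 2). After TMM scaling the libraries differed by a log2 of -0.0047, a fold of 0.997 (0.955 to 1.04; exact binomial test, adjusted p = 0.93). Under spike-in and total-count scaling it was called lower by the exact test (log2 -0.28, adjusted p = 2.591e-18, and -0.34, adjusted p = 3.694e-27), as far as the median of all genes moved. Por, Cyb5a, Cyb5b and Cyb5r3 together summed to 338 TPM in replicate 1 and 358 TPM in replicate 2.

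The 2 transcript tables disagreed on which Cyb5r3 transcript was expressed. The first table, from the transcriptome alignment, gave Cyb5r3-203 (278 codons) 80.5% and 83.0% of Cyb5r3 TPM and Cyb5r3-201 (301 codons) 18.6% and 16.5%. The second gave Cyb5r3-203 27.2% and 37.3% and Cyb5r3-201 71.7% and 62.2%. The libraries were close within a table and the tables far apart within a library. The gene is known to give a membrane-bound form of the enzyme, and a shorter soluble form that starts further inside. The transcripts overlap in most of their length, with 481 exon bases of Cyb5r3-201 (21 of them coding) outside Cyb5r3-203 and 41 exon bases of Cyb5r3-203 (none coding) outside Cyb5r3-201. The first 120 coding bases of Cyb5r3-201 (mm10 chr15:83166108-83172132, minus strand, read across exons) and the first 60 of Cyb5r3-203 (chr15:83166099-83166158, minus strand) are shown because these starts are what tells the forms apart. Capitals mark the coding bases that no exon of Cyb5r3-203 holds.
Cyb5r3-201: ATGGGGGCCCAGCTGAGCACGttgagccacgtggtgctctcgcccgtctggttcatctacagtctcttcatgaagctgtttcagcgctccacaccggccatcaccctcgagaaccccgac
Cyb5r3-203: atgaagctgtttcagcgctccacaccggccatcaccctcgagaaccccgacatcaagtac
The cause of the disagreement was not tested.

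**Figure D4:**
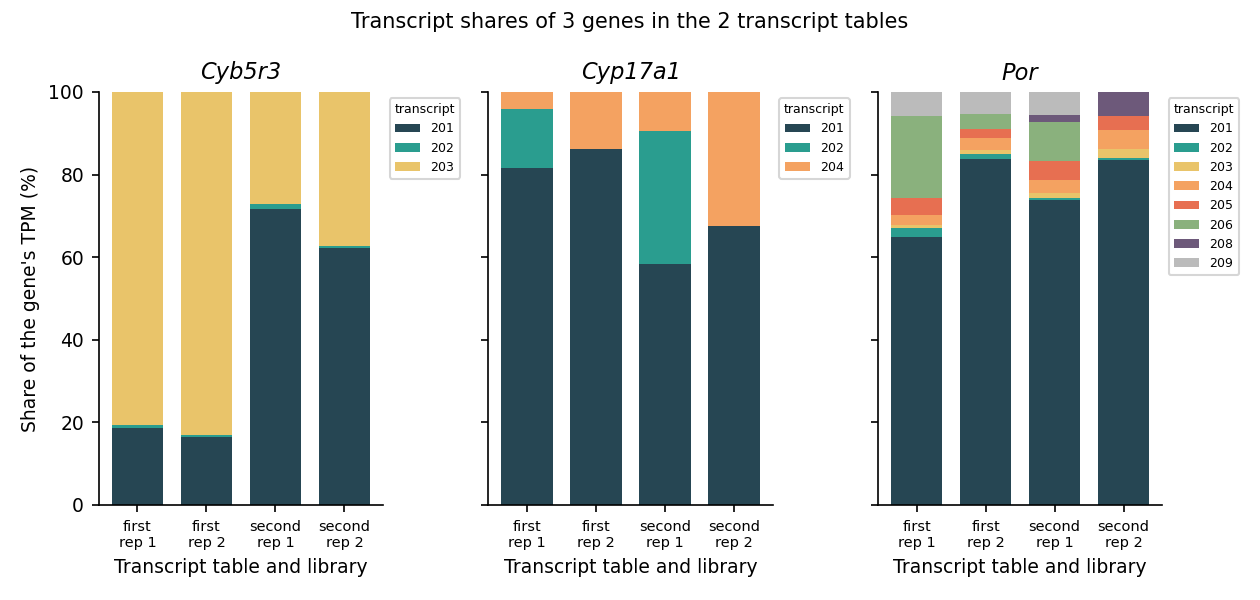
Share of each gene's TPM (percent) given to its transcripts (numbers in the legends) of Cyb5r3, Cyp17a1 and Por, in the first and second transcript table for replicate 1 and replicate 2; transcripts under 1% in every bar are left out. Cyb5r3-203 holds 80.5% and 83.0% in the first table and 27.2% and 37.3% in the second, while Por-201 leads in every bar.

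The wider pathways were described from 6 lists of 68 genes, 66 of which matched. Of 15 P450 redox partners 14 were tested, of which 5 were called higher, 3 lower and 6 not (median difference 0.19), a share of calls near the 53.2% of all genes. Besides Por and Cyb5a, the higher ones were Pgrmc1 (97.8 and 88.6 TPM; log2 0.28) and Pgrmc2 (16.2 and 11.0 TPM; log2 0.31), membrane haem proteins that bind P450s, and H6pd (33.3 and 34.0 TPM; log2 0.41), which makes NADPH inside the endoplasmic reticulum. Pgrmc1 and Pgrmc2 depended on the scale: with total counts they stood at -0.060 and -0.030, and the list split into 3 higher and 6 lower. On that scale 2262 of the 16137 genes tested were called higher and 9409 lower. The mitochondrial pair was lower in replicate 2, as the cortex markers were: Fdx1 was at 506 and 222 TPM (log2 -0.82) and its reductase Fdxr at 207 and 109 TPM (log2 -0.50). Por was thus 3.59-fold below Fdxr in replicate 1 and 1.60-fold below it in replicate 2 (log2 -1.26 ± 0.829, SD, n = 2). Cyb5r2 had 0 counts in both libraries, and Cyb5r1, Cyb5r4 and Cyb5rl stood between 4.68 and 11.9 TPM and were not called.

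Of the corticosteroid route, 7 of 7 genes were called lower in replicate 2 (median -0.76), against 24.6% of all genes. Star, Cyp11a1, Hsd3b1, Cyp21a1 and Cyp11b1 are also among the steroid cortex markers above, so this is in large part the same observation. Hsd3b1, which makes progesterone, stood at 2870 and 1275 TPM, and Cyp21a1, the steroid hydroxylase that competes with Cyp17a1 for substrate, at 1347 and 639 TPM. Cyp21a1 was the microsomal P450 of highest level in the list of enzymes that take electrons from Por, in each library. That list held 15 genes, of which 14 were tested, 5 called higher, 4 lower and 5 not (median 0.058), beside 53.2% of all genes called. With spike-ins or totals as the scale 4 were higher and 8 lower, where 11047 and 11671 of the 16137 genes were called. Its lower members were Cyp21a1 (log2 -0.66), Cyp51 (-1.04) and Sqle (-1.02) of cholesterol synthesis, and Cyp1b1 (-0.63). Its higher ones included the liver P450s Cyp3a11, at 2.03 and 135 TPM, and Cyp2e1, at 27.8 and 403 TPM. Hmox1 and Hmox2, which break down haem, were not called.

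Of 8 enzymes that take electrons from cytochrome b5, 7 were matched and tested, with 3 called higher and 4 lower (median -0.33), against 28.6% and 24.6% of all genes. The lower ones were the fatty acid desaturases Scd2 (143 and 65.7 TPM; log2 -0.66), Fads1 (-0.33) and Fads2 (299 and 161 TPM; -0.46), and the sterol oxidase Msmo1 (-1.04). Scd1 (50.02 and 58.1 TPM; log2 0.80), Sc5d (0.62) and Cmah (1.47) were higher. The relatives of the Srd5a genes and dolichol genes gave 1 higher (Dolk, log2 0.18; exact binomial test, adjusted p = 0.028), 3 lower (the 3 Srd5a genes) and 4 not called of 8 tested, a share of calls near the 53.2% of all genes. Dolk, the dolichol kinase, turned to -0.16 under total-count scaling, where 8 of 8 were called lower, as were 9409 of all 16137 genes tested. Tecr, a reductase of fatty acid elongation with sequence similarity to Srd5a1, stood at 137 and 92.1 TPM, and Dhdds and Nus1, which make the polyprenol that Srd5a3 reduces, at 12.0 and 9.45 TPM and at 16.6 and 10.8 TPM, none of them called with TMM.

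Genes that handle androgens and estrogens further on moved more. Of 14 matched members of that list, 8 were tested, with 7 called higher in replicate 2, against 28.6% of all genes, and a median of 5.27. Sult2a1, a sulfotransferase of hydroxysteroids, had 84.5 and 5719 counts, and Akr1c6, a ketosteroid reductase, 25 and 2260. Hsd17b2, which oxidises testosterone and estradiol, had 16 and 817 counts. Papss2, which makes the sulfate donor, had 641 and 2235, and Esr1, the estrogen receptor, stood at 4.79 and 8.12 TPM (log2 1.26). The difference of the first 3 was close to that of the hepatocyte markers (6.57 for Sult2a1, 6.96 for Akr1c6 and 6.11 for Hsd17b2, against a median of 6.31), and the part of that cell type was not tested. Hsd17b3, which makes testosterone in the testis, had 1 and 2 counts, and Hsd17b1, which makes estradiol in the ovary, 15 and 11, too few to test.

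**Figure D5:**
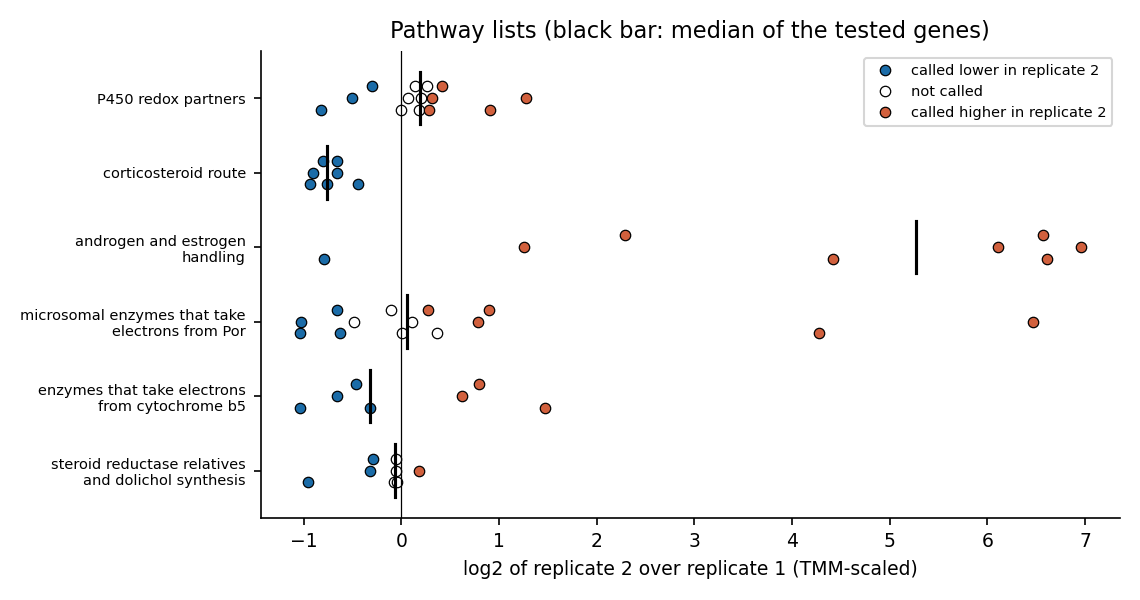
Difference between the libraries (log2 of replicate 2 over replicate 1, TMM-scaled) of each tested gene in 6 pathway lists; blue, called lower in replicate 2; orange, called higher; white, not called; a black bar marks the list's median. All 7 corticosteroid route genes lie below 0 (median -0.76), and 7 of 8 tested androgen and estrogen handling genes lie above it (median 5.27).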

How the data were processed

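Total RNA-seq of adrenal gland gave 1 group of 2 libraries. Per the labels, the assembly is mm10, and per the text deposited with each sample the annotation is GENCODE M21. Per that deposited text, reads aligned to the transcriptome were the input of the gene table and of 1 transcript table (called the first), and read files with an index were the input of the other (called the second). Which tools and versions made them, and whether strand was used, is not given in the sources used here. Per the file headers, the first 2 hold expected counts with their posterior SD and TPM as the authors deposited them, and for each transcript its percent of the gene's TPM. In the second transcript table the authors give TPM and estimated counts.

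Genes that share a symbol were summed. Expected counts were rounded to whole numbers and scaled with TMM (edgeR 4.0.16, R 4.3.3). Each gene with a mean count of at least 20, mitochondrially encoded genes left out, was tested by an exact binomial test of its counts given their sum (two-sided, the smaller tail doubled, scipy 1.17.1), with Benjamini-Hochberg adjusted p under 0.05. The test compares 2 libraries by counting error and not conditions. Differences carry a prior count of 0.5. Fold intervals are Clopper-Pearson and count intervals exact Poisson, both at 95%. Transcript shares and ratios of TPM have no test. The script was tested on simulated counts.

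Genes named are the 9 genes, members of 6 pathway lists, marker lists and genes that overlap one of the 9 or start within 1000 bases of its start. The 9 genes and the lists were chosen with earlier results of these data known. Sts and Faxdc2 were not matched and not used here, 1 list gene is not reported here, and promoter windows came from a RefSeq table (GRCm38.p6). The 41 alternatives covered scaling (DESeq2 1.42.0 size factors, spike-ins, total counts), count minimums, pseudocounts, the second table, ratios of counts and leaving out each replicate. At these depths 0 counts allow up to 7.98e-06% of the counts of replicate 1 and 8.86e-06% of replicate 2.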

Additional observations from a re-analysis of the deposited data

How the results depend on the processing

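Of the differences of single genes, 41 values kept direction and, where a test was run, their call under the alternatives, 13 values without a test kept direction with another size, 4 gained a call (Cyp17a1 and Cyb5r3, with spike-ins or totals as the scale) and 6 reversed. Set relative to the median of the 8 steroid cortex markers, 5 turned from lower to higher: Cyp17a1 (0.38), Srd5a1 (0.55), Srd5a3 (0.57), Cyb5b (0.57) and Cyb5r3 (0.86). The second transcript table turned Cyb5r3 from -0.0047 to 0.017, which was not called in either. With 1.5-fold added to the call, 3 of the 9 genes and 3347 of all genes were called, in place of 6 and 8581. Under spike-in and total-count scaling 8 of the 9 genes were called, 2 higher and 6 lower, and all genes split into 2525 higher and 8522 lower (spike-ins) or 2262 and 9409 (totals), in place of 4610 and 3971, since the median gene moved by -0.28 and -0.34. DESeq2 size factors, count minimums and the second table left 6 of the 9 called, 2 higher and 4 lower. Taken as ratios of counts, which carry gene length, Srd5a2 to Srd5a1 was 0.68 (log2), and 4 ratios reversed: Srd5a3 to Srd5a1 (-0.38), Cyb5a to Cyb5b (-2.09), Cyb5a to Por (-0.55) and Cyb5r3 to Cyb5a (0.51). Cyp17a1 to Cyp11a1 moved beyond its small spread, from -8.96 to -9.23 by counts. It was -9.05 with coding transcripts only and -8.23 with a pseudocount of 1 TPM. Cyb5a to Cyb5b was -0.32 without replicate 2 and 1.24 without replicate 1. Calls could not be made without a replicate, since 1 library would be left. The pathway lists were put on the other scales after the data were seen, and DESeq2 size factors changed no list's counts. No paired analysis was possible because there is 1 group. Of the levels, 28 values stayed within the spread and 17 moved: rescaled to protein-coding genes Cyp17a1 stood at 5.95 TPM and Srd5a2 at 59.7, and in the second table at 2.63 and 29.7, in place of 1.71 and 17.1. Those that stayed include both values without a replicate for each of the 9 genes. These could not move, since leaving out 1 of 2 libraries shifts a mean by less than its SD. Depth limits Cyp19a1 (0 to 1 count) and the transcript shares of Cyp17a1.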

Other observations

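The 9 genes have 43 annotated transcripts, 22 of them coding, and for each gene but Cyb5r3 both tables, where they gave it counts, put most of the signal on the same one. Srd5a2 has a single transcript, of 254 codons. Srd5a1-202 (255 codons) held 98.7% and 97.1% of Srd5a1 TPM in the first table, and 85.6% and 80.7% in the second, which gave 13.4% and 17.0% to the non-coding Srd5a1-203 against 0 in the first. Cyb5a-204, which codes for 134 codons, held 87.2% and 89.8% in the first table and 92.9% and 81.4% in the second. The shorter coding Cyb5a-205 (110 codons) held 7.36% and 6.15% in the first table, but 0 and 15.8% in the second. Cyb5b-201 (146 codons) held 100% of Cyb5b TPM in both libraries in the first table, while the second gave the non-coding Cyb5b-202 15.5% in replicate 1 and 0.41% in replicate 2. Srd5a3-201 (330 codons) held 78.7% and 75.3% in the first table and 69.4% and 88.4% in the second, where Srd5a3-203, another coding transcript, held 20.5% and 2.31%. Por-206, which keeps an intron, held 19.7% and 3.80% of Por TPM in the first table and 9.34% and 0 in the second. The cause of these differences between the tables was not tested.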
